A study of Ovis aries with 12 samples.

Results

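The genes described here are the 78 identifiers, of 24616 counted, whose level differed most between single endometrium libraries. They were chosen by their measured values in the 6 libraries named T: the highest T library had to reach 10 CPM (the level once each library is brought to a total of 1000000 counts) and to lie at least 8 times above the median of the 6 T libraries. Of all identifiers, 10823 reached 10 CPM in at least 1 T library. Identifiers under 0.1 CPM in every Co library with 1 CPM or more in every T library were to be left out, which removed 0. The spread within T is therefore a description of the choice and was given no test.

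RNA sequencing counts were deposited for 12 libraries of sheep reproductive tissue in 4 groups of 3. T-L and T-H were endometrium at low and at high fertility. Co-L and Co-H were labelled ovary at low and at high fertility, except Co-H 3, which was labelled corpus luteum, and the file headers name all 6 Co libraries CL. The series text speaks of pooled samples, of a control and of a treatment, without saying which libraries these were, and breed, age, cycle day and pregnancy were not stated in the labels.

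Nothing in the labels ties the 3 libraries of a group to separate animals or pools, so the p-values reflect no more than how these libraries varied, which may be technical. Total counts were 9627378 to 13934369 in T and 12665680 to 17852552 in Co, and a count of 3 in the shallowest T library corresponded to 0.312 CPM. T-H 1, with 10964267 counts, was neither the deepest nor the shallowest T library. Its TMM factor, a scaling for differences in composition, was 1.03 against 1.16 to 1.23 in the other T libraries.

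The endometrium is the inner lining of the uterus. It consists of a luminal epithelium, glands that secrete into the uterine cavity, stroma, blood vessels and resident immune cells, and its gene expression changes through the oestrous cycle under ovarian steroids and again when an embryo is present. The Co tissue differs from it in kind, since the corpus luteum is the gland that makes progesterone after ovulation. In libraries of whole tissue, fewer cells of a type and less RNA per cell cannot be told apart. The counts carry cattle identifiers that the files do not pair with names, and 0 of 24616 matched the sheep gene table used here. They are therefore given by identifier without a function, and the tissue could not be checked against marker genes. Gene lengths were not known either, so comparisons of level between identifiers are of read counts and not per length.

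One library held most of the extreme values. The highest T level of 64 of the 78 identifiers (82.1%) was in T-H 1, against 9.73% of the 10823 identifiers at 10 CPM or more. T-L 3 held the highest level of 7, T-L 1 of 4, and each of the other 3 libraries of 1. T-H 1 stands apart in this respect. The rule itself, the fertility contrast in T and the contrast of T with Co are therefore also given without it, while the sets named after T-H 1 have no counterpart without it.

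**Figure D1:**
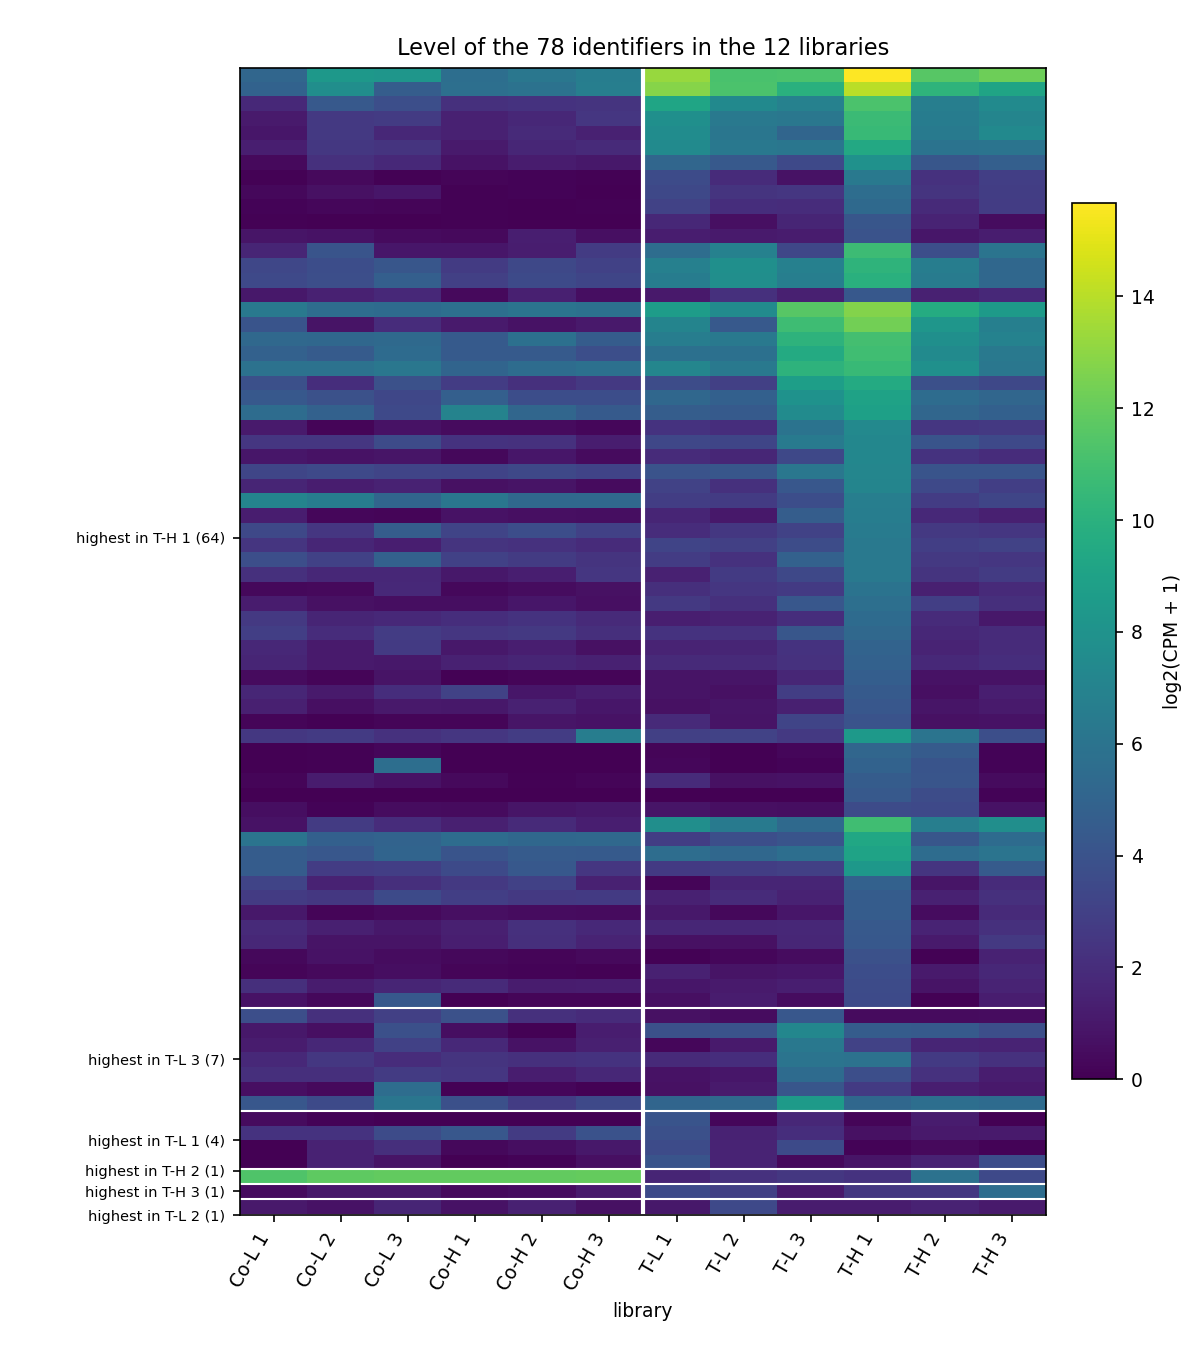
Level of the 78 identifiers (rows) in the 12 libraries (columns), as log2(CPM + 1) by colour. Rows are grouped by the T library with the highest level and ordered within a group by the second highest T library, and T-H 1 forms the bright column for 64 rows.

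The identifiers took 10.5% of all counts of T-H 1. In the other T libraries they took 2.02% in T-L 1 and 1.40% in T-L 3, then 0.751% in T-H 3, 0.727% in T-H 2 and 0.647% in T-L 2. In the 6 Co libraries they took 0.446% ± 0.0534 (SD, n = 6), with 0.340% to 0.491% in single libraries, of which ENSBTAG00000021516 alone was 0.262% to 0.395%. T-H 1 thus lay above every other library. The Co libraries lay below every T library, an order that did not hold without the 2 most abundant identifiers described next. The 95% Wilson interval of the share in T-H 1 was 10.47% to 10.50%, which covers counting error only.

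ENSBTAG00000031160 and ENSBTAG00000048135 made up most of that share. The first took 5.197% and the second 1.72% of the counts of T-H 1. The remaining 76 identifiers took 3.56% of T-H 1, 1.06% of T-L 3, 0.180% to 0.299% of the other 4 T libraries and 0.334% to 0.460% of the Co libraries. For these 76 every Co library lay above those 4 T libraries. This order rested on ENSBTAG00000021516, which alone took 0.262% to 0.395% of the Co libraries, and does not describe the other identifiers. Beyond the 2 most abundant identifiers, T-L 3 was thus second to T-H 1, and T-L 1 was not set apart.

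**Figure D2:**
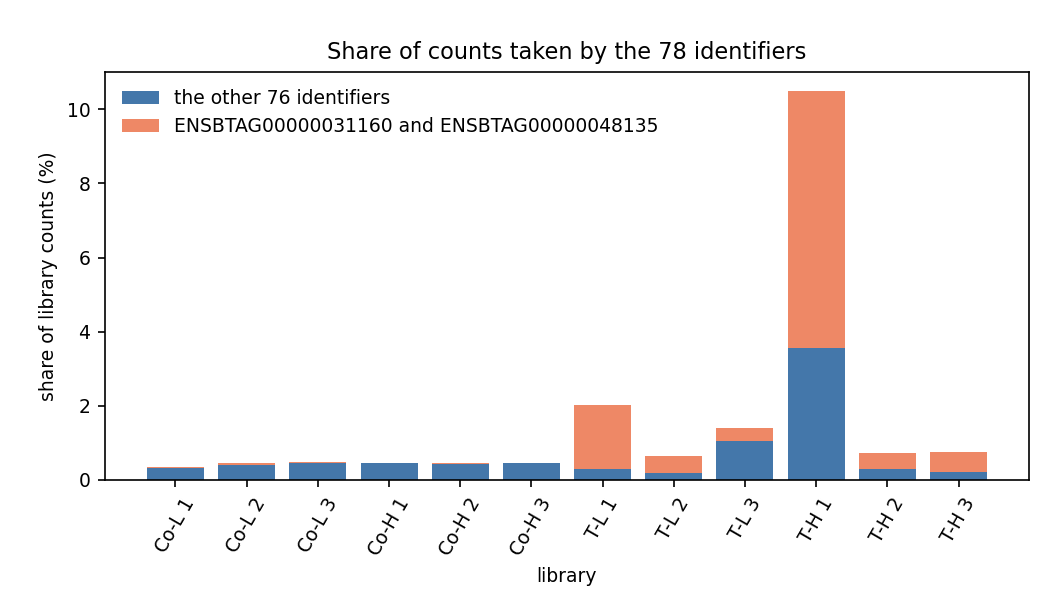
Share of each library's counts, in percent, taken by the 78 identifiers, with the 2 most abundant ones stacked on the other 76. T-H 1 reaches 10.5%, T-L 1 owes its 2.02% mainly to the 2 abundant identifiers, and T-L 3 owes most of its 1.40% to the others.

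Most highest levels were moderate. They lay under 100 CPM for 46 identifiers, between 100 and 1000 CPM for 19 and above 1000 CPM for 13. The ratio of the highest level to the T median had a median of 12.96 over the 78 identifiers. The members closest to the threshold were ENSBTAG00000004982, at 8.01 times its median, and ENSBTAG00000031395, at 8.02 times. The 2 closest outside it were ENSBTAG00000009812, at 7.99 times, and ENSBTAG00000002240, at 7.98 times. On the level, ENSBTAG00000031395 at 10.1 CPM lay just inside and ENSBTAG00000007901 at 9.87 CPM just outside.

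Libraries at 8 times the T median or more, and then at 4 times, were used to sort the identifiers by the libraries that carried them. At 8 times, 55 were carried by T-H 1 alone, 5 by T-H 1 and T-H 2, 5 by T-H 1 and T-L 3, 6 by T-L 3 alone, 3 by T-L 1 alone, 1 by T-L 1 and T-L 3, and 1 each by the other 3 libraries alone. At 4 times, 40 were carried by T-H 1 alone and 19 by T-H 1 and T-L 3. At 4 times, the partner of T-H 1 was thus T-L 3, a low fertility library, more often than any other.

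Among the 64 identifiers highest in T-H 1, the second highest T library was T-L 3 for 29 (45.3%), T-H 3 for 13, T-L 1 for 12, T-H 2 for 6 and T-L 2 for 4. Of all 1053 identifiers at 10 CPM or more with their highest level in T-H 1, T-L 3 was second for 23.6% and T-H 3 for 29.2%. T-L 3 was thus second more often, and T-H 3 less often, among the 64 than among the 1053, a difference that was not tested because the choice used these values.

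Of these 64 identifiers 16 reached 4 times their median in T-L 3 as well. In all 16 T-L 3 was second, and T-H 2 came next in 10. The level in T-H 1 was 1.39 to 4.22 times that in T-L 3, with a median of 2.26 times. These 16 took 2.01% of the counts of T-H 1, 0.905% of T-L 3, 0.189% of T-H 2 and 0.0514% to 0.0955% of the remaining 3 T libraries.

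By ratio, ENSBTAG00000008545 and ENSBTAG00000046409 led this set. ENSBTAG00000008545 stood at 779 CPM in T-H 1 and 447 CPM in T-L 3, and at 6.96 to 13.5 CPM in the other 4 T libraries. ENSBTAG00000046409 stood at 100.1 CPM in T-H 1 and 23.7 CPM in T-L 3, with 1.00 to 2.48 CPM in the other T libraries. Both had 2 high and 4 low T libraries, with no level in between.

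The most abundant of the 16, named after their values were seen, were ENSBTAG00000010069 and ENSBTAG00000008182. ENSBTAG00000010069 stood at 7023 CPM in T-H 1, 3066 CPM in T-L 3, 806 CPM in T-H 2, and 184 to 407 CPM in the remaining 3. ENSBTAG00000008182 stood at 5103 CPM in T-H 1, 1812 CPM in T-L 3, 305 CPM in T-H 2, and 19.7 to 136 CPM in the same 3. Here T-H 2 formed an intermediate step, unlike in the pair above.

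**Figure D3:**
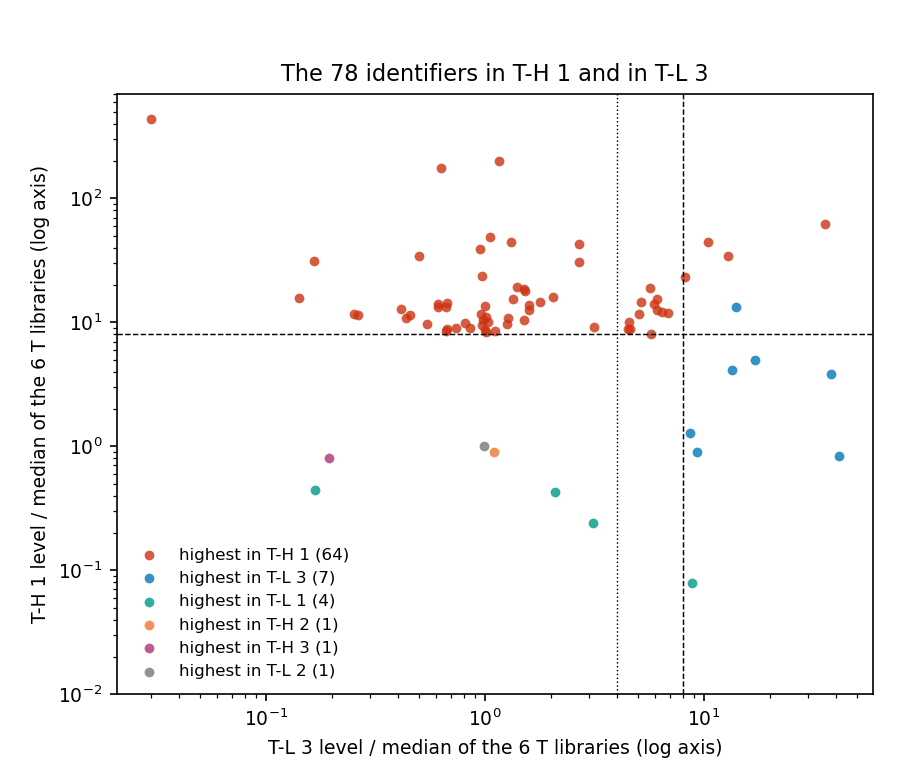
Level in T-H 1 (vertical) against level in T-L 3 (horizontal), each divided by the median of the 6 T libraries, on log axes, 1 point per identifier, coloured by the T library with the highest level. Dashed lines mark 8 times and the dotted line 4 times the median, and 1 identifier with no counts in T-L 3 is drawn near the left edge. Red points right of the dotted line are the 16 identifiers high in both libraries.

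A different set of 12 had T-H 1 highest and T-L 1 second. It held both most abundant identifiers and took 7.59% of the counts of T-H 1, 1.85% of T-L 1 and 0.368% to 0.593% of the other 4 T libraries. T-L 1 was above T-L 3 in all 12, which the choice of the set fixed, and T-H 3 came next in 9. T-L 3, the partner library of the 16, was near the middle or low here, with a median of 0.637 times the T median.

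ENSBTAG00000031160 stood at 51974 CPM in T-H 1, 9911 CPM in T-L 1, 4752 CPM in T-H 3, 3128 CPM in T-H 2, 2399 CPM in T-L 3 and, lowest, 2261 CPM in T-L 2. It was abundant in every T library. ENSBTAG00000048135 stood at 17230 CPM in T-H 1, 7346 CPM in T-L 1, 2416 CPM in T-L 2, 1148 CPM in T-H 2, 968 CPM in T-L 3 and, lowest, 566 CPM in T-H 3. The order of the libraries below T-L 1 thus differed between these 2.

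By ratio the set was led by ENSBTAG00000046813 and ENSBTAG00000048268. ENSBTAG00000046813 stood at 80.7 CPM in T-H 1, 10.7 CPM in T-L 1, 6.49 CPM in T-H 3, 3.79 CPM in T-H 2, 2.80 CPM in T-L 2 and, lowest, 0.727 CPM in T-L 3. ENSBTAG00000048268 stood at 1665 CPM in T-H 1, 218 CPM in T-L 1, 141 CPM in T-H 3, 95.6 CPM in T-H 2, 78.8 CPM in T-L 2 and, lowest, 72.4 CPM in T-L 3. T-L 3 was the lowest T library for both.

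Some identifiers in T-H 1 had no second library near it. ENSBTAG00000038639 had the highest ratio among the 40 at 4 times the median in T-H 1 alone. It stood at 319.7 CPM in T-H 1, 21.4 CPM in T-H 3 and 4.41 to 6.96 CPM in the other 4 T libraries. ENSBTAG00000002135, the next by ratio, stood at 149 CPM in T-H 1 and 2.15 to 9.35 CPM in the other 5. In both, a single library was far above all others. The 40 took 6.69% of the counts of T-H 1 and 0.317% to 1.17% of the other T libraries. ENSBTAG00000031160, which is among them, alone took 5.197% of T-H 1 and 0.991% of T-L 1. The 40 are not separate from the set above, since they hold 11 of the 12 with T-L 1 second.

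Another 5 identifiers were carried by T-H 1 and T-H 2 together, both of high fertility, while T-H 3 stayed with the low fertility libraries. With 5 members the set is named in full. ENSBTAG00000039425 stood at 19.5 CPM in T-H 1 and 11.5 CPM in T-H 2, with 0.0901 CPM in T-H 3 and no counts in any T-L library. ENSBTAG00000031376 stood at 35.7 and 21.5 CPM in the same 2 libraries and at 0 to 0.208 CPM in the other 4. ENSBTAG00000036116 stood at 29.1 and 15.5 CPM against 0 to 0.227 CPM. For these 3 the T median lay under the floor of 3 counts, so their ratios rest on few counts. Against that floor T-H 1 was at least 62.6, 114 and 93.4 times higher.

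The other 2 of the 5 were present everywhere. ENSBTAG00000004097 stood at 11.1 CPM in T-H 1 and 10.2 CPM in T-H 2, with 0.519 to 0.832 CPM in the other T libraries. ENSBTAG00000006806 stood at 22.4 and 16.6 CPM, with 0.360 to 2.80 CPM in the other 4. ENSBTAG00000037605 reached 4 but not 8 times its median in T-H 2, with 348 CPM in T-H 1, 65.1 CPM in T-H 2, 12.8 CPM in T-H 3 and 5.09 to 7.54 CPM in T-L. ENSBTAG00000039122 was the one identifier that reached 4 times its median in T-H 1 and T-H 3 together, at 14.0 and 1.80 CPM, against 0.0756 to 0.415 CPM in the other 4. Both were named after their values were seen.

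The 7 identifiers highest in T-L 3 reached 17.7 to 378 CPM there. T-H 1 was second for 5 of them. By ratio ENSBTAG00000016063 and ENSBTAG00000006505 led. ENSBTAG00000016063 stood at 18.2 CPM in T-L 3 and 0.365 to 0.605 CPM in the other 5 T libraries, T-H 1 being the lowest. ENSBTAG00000006505 stood at 75.7 CPM in T-L 3, 7.66 CPM in T-H 1 and 0.227 to 2.09 CPM in the other 4.

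A wide range of partners was seen within these 7. ENSBTAG00000018773, the single one of them also at 8 times its median in T-H 1, stood at 63.6 CPM in T-L 3, 59.6 CPM in T-H 1 and 2.57 to 5.34 CPM in the other T libraries. ENSBTAG00000020755, the most abundant, stood at 378 CPM in T-L 3 and 33.9 to 49.2 CPM in the other 5, with T-H 1 at 36.9 CPM. Both were named after their values were seen.

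T-L 1 held the highest level of 4 identifiers, all at 11.1 to 15.9 CPM. ENSBTAG00000040439 stood at 15.9 CPM in T-L 1 and 0 to 2.39 CPM in the others. ENSBTAG00000037693 stood at 15.7 CPM in T-L 1, close to its 11.8 CPM in T-H 3, with 0.312 to 1.94 CPM in the other 4. ENSBTAG00000005377 stood at 11.1 CPM in T-L 1, 10.3 CPM in T-L 3, 2.01 CPM in T-L 2 and 0.0901 to 0.309 CPM in T-H. ENSBTAG00000012909 stood at 13.3 CPM in T-L 1, 3.12 CPM in T-L 3, 1.79 CPM in T-L 2 and 0.638 to 1.17 CPM in T-H. In ENSBTAG00000005377 and ENSBTAG00000012909 all 3 T-L libraries lay above all 3 T-H libraries. All 4 lay below their T median in T-H 1.

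The 3 identifiers highest in the remaining libraries were single cases. ENSBTAG00000004982 stood at 47.1 CPM in T-H 3 and 1.14 to 10.4 CPM in the other T libraries, and ENSBTAG00000031395 at 10.1 CPM in T-L 2 and 0.983 to 1.86 CPM in the others. ENSBTAG00000021516 stood at 58.6 CPM in T-H 2 and 2.12 to 4.78 CPM in 4 others, with T-H 3 between them. It was the one identifier for which every Co library, at 2618 to 3946 CPM, lay above every T library.

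With T-H 1 left out and the same rule applied to the other 5 T libraries, 25 identifiers were found, 24 of them among the 78. T-L 3 held the highest level of 15 of the 25, T-H 2 of 7, T-L 1 of 2, T-L 2 of 1 and T-H 3 of 0. Of the 15 in T-L 3, 7 had their highest level over all 6 T libraries in T-H 1, among them ENSBTAG00000008545 and ENSBTAG00000008182. None of the 12 identifiers with T-L 1 second was found without T-H 1.

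Between the fertility groups of T the values overlapped for most of the 78, as they did for most identifiers at 10 CPM or more in T. All 3 T-H libraries lay above all 3 T-L libraries for 3 of the 78 and below them for 2, against 2.56% and 6.06% of the 10823 identifiers at 10 CPM or more in T. The edgeR quasi-likelihood test called 0 of the 75 identifiers that passed the count filter, against 0% of the 14839 tested (Benjamini-Hochberg adjusted p under 0.05), and the unadjusted p was under 0.05 for 39, against 4.1% of all genes tested. Without T-H 1 edgeR also called 0. DESeq2 gave an adjusted p to 55 of the 75 members, a smaller share than its 14757 of the 14839 genes. It called 3 of these 55 members, against 0.183% of all such genes. These were ENSBTAG00000004097 and ENSBTAG00000025258 higher and ENSBTAG00000005377 lower in T-H (DESeq2 adjusted p = 0.0171, 0.0174 and 0.00796). The median log2 difference of T-H against T-L was 2.07 over the 75 against 0.01 over all genes tested, and −0.41 without T-H 1. The choice of the members used this contrast, so nothing is read from these values.

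The level in Co was low for most identifiers. The median Co level had a median of 1.88 CPM over the 78, and the median T level one of 4.49 CPM. Every Co library lay below every T library for 28 (35.9%), against 35.5% of the 10823 identifiers at 10 CPM or more in T, so complete separation was about as frequent as among these. The Co median was above the T median for 17 (21.8%), against 26.3%. Under 1 CPM in all Co libraries were 12 (15.4%), against 1.80%, and 1, ENSBTAG00000039425, had no counts in Co. The rule limits the T median of the members but not that of the 10823. Whether the 2 shares differ through this choice was not tested.

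**Figure D4:**
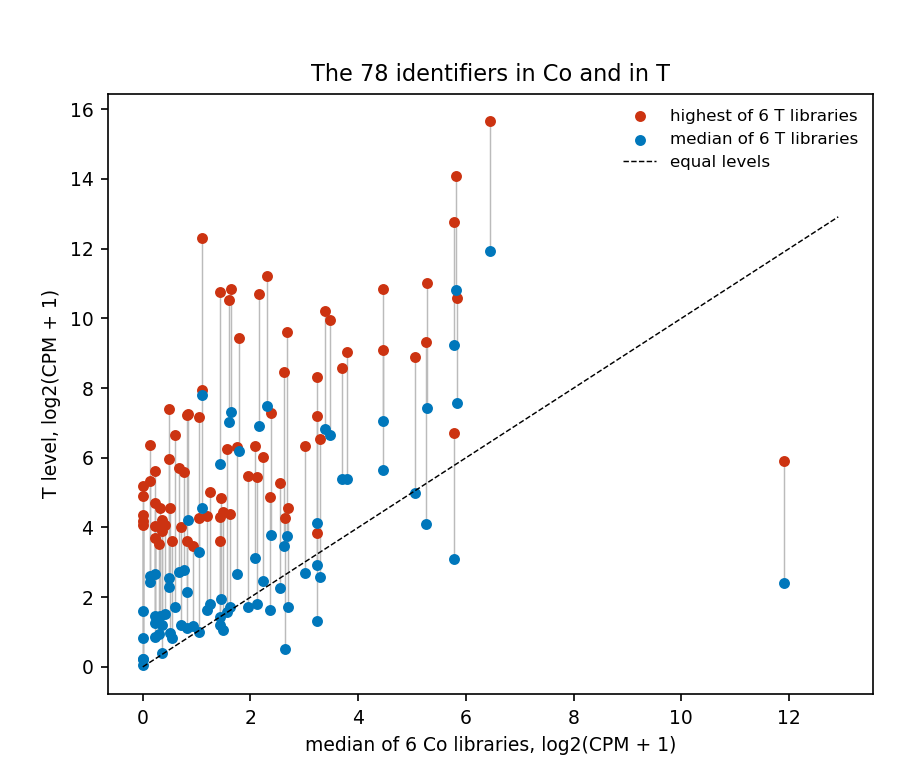
T level against the median of the 6 Co libraries, both as log2(CPM + 1), with 1 grey line per identifier from its T median (blue) to its highest T library (red). For 61 of the 78 identifiers the T median lies on or above the dashed line of equal levels, and ENSBTAG00000021516 stands alone on the right with both points below it.

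In the edgeR test of T against Co 49 of the 75 were called, against 64.4% of all genes tested. Of these 45 were higher in T, with a background of 31.7%, and 4 were lower, with a background of 32.7%. Without T-H 1, 49 were again called, 40 higher and 9 lower, against 33.3% and 28.6% of all genes. The median log2 difference of T against Co was 2.28 over the 75, with 13.3% below 0, and 1.57 without T-H 1, with 28.0% below 0. Over all genes tested the median was −0.01, with 50.3% below 0. Since the choice asked for 10 CPM in T, the split follows in part from it and nothing is read from it. The 4 lower ones over all libraries were ENSBTAG00000021516, ENSBTAG00000012909, ENSBTAG00000031430 and ENSBTAG00000016063. ENSBTAG00000031430 stood at 32.9 to 133 CPM in Co and 5.67 to 12.0 CPM in 5 T libraries, but at 105 CPM in T-H 1, inside the Co range.

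The sets differed in their levels in both tissues. Of the 12 with T-L 1 second, 11 had every T library above every Co library, and the T median was 34.1 times the Co median at the median of the set. Of the 16 shared with T-L 3, 7 had every T library above every Co library, and the same ratio was 3.30 times. Such separation held for 35.5% of the 10823 identifiers at 10 CPM or more in T. The Co median was 1.59 CPM at the median of the 12 and 6.27 CPM at that of the 16. The T median was 47.9 and 14.7 CPM. ENSBTAG00000031160 stood at 35.6 to 330.2 CPM in Co, lowest in Co-L 1 and highest in Co-L 2. ENSBTAG00000010069 stood at 43.8 to 80.6 CPM in Co, lowest in Co-L 3 and highest in Co-L 1. The difference between the sets was not tested, since the sets were drawn from the T values.

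Extreme spread recurred in Co for some. Of the 78, 32 reached 10 CPM in a Co library, and 7 of these 32 (21.9%) had a highest Co level at least 8 times their Co median, against 2.19% of the 10082 identifiers at 10 CPM or more in Co. All 7 were under 10 CPM in their other Co libraries, so they passed the level of 10 CPM only through the high one. The median Co level had a median of 1.88 CPM over the 78, and members that low can reach 10 CPM only with a wide spread. Nothing is therefore read from the difference between the 2 shares. Co-L 3 held the highest level for 4 of the 7. ENSBTAG00000036116 stood at 48.9 CPM in Co-L 3 and 0 to 0.0562 CPM in the other Co libraries, so 1 library was high here and 2 in T. ENSBTAG00000001785 stood at 47.3 CPM in Co-L 3 and 0.0787 to 0.537 CPM in the others, ENSBTAG00000031825 at 19.1 CPM against 0 to 0.717 CPM, and ENSBTAG00000003220 at 12.9 CPM against 0.0560 to 1.42 CPM.

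The other 3 of the 7 were each carried by another Co library. ENSBTAG00000008182 stood at 15.6 CPM in Co-L 1 and 0.728 to 2.99 CPM in the others. ENSBTAG00000039237 stood at 15.5 CPM in Co-L 2 and 0.897 to 5.67 CPM in the others, while in T it reached 1727 CPM in T-H 1 and 9.24 to 119 CPM elsewhere. ENSBTAG00000037605 stood at 99.0 CPM in Co-H 3, the library labelled corpus luteum, and 3.66 to 5.88 CPM in the others. The high Co library thus differed between all 3.

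The Co library with the highest level was Co-L 3 for 27 of the 77 with a Co count (35.1%), Co-L 1 for 17, Co-L 2 for 15 (19.5%), and Co-H 1, Co-H 2 and Co-H 3 for 6, 7 and 5. Of the 10808 identifiers at 10 CPM or more in T with a Co count, Co-L 3 was highest for 20.4%, Co-L 2 for 4.46% and Co-H 3 for 26.6%. For 5 of the 7 identifiers highest in T-L 3 the highest Co library was Co-L 3, against 31.9% of the 1786 such identifiers with their highest level in T-L 3. For the 63 highest in T-H 1 with a Co count, Co-H 1 was highest for 4 (6.35%), against 8.94%. Over all 77, the highest T and Co libraries had the same fertility letter and number for 11 (14.3%), against 17.3%. Such a match was thus not more frequent among the members. The labels do not say that equal numbers mark the same animals.

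The fertility contrast in Co was not used to choose the members, but its test is not independent of the choice. The spread of each gene was estimated over all 12 libraries together, and the members were chosen for wide spread in T. Their median standard error in this contrast was 1.13, and 0.80 without T-H 1. Nothing is therefore read from how few members were called. In the edgeR test of Co-H against Co-L 0 of the 75 were called, against 4.78% of the 14839 genes tested, 2.46% higher and 2.32% lower. That background was not stable: 709 genes were called with all libraries, 3110 without Co-H 1, 1131 without Co-L 1 and 0 to 7 without any other single library, while the count of members called was 0 in each case. The smallest adjusted p among them was 0.0769 (edgeR). The unadjusted p was under 0.05 for 4 of the 75, against 28.8% of all genes tested, and 15.7% in the lower direction. All 4 were lower in Co-H: ENSBTAG00000036116, ENSBTAG00000001785, ENSBTAG00000031825 and ENSBTAG00000003220, the 4 with a single high level in Co-L 3 described above. DESeq2 gave an adjusted p to 55 of the 75 members, a smaller share than its 14181 of the 14839 genes. It called 3 of these 55 members, against 16% of all such genes. All 3 were lower in Co-H: ENSBTAG00000036116, ENSBTAG00000031825 and ENSBTAG00000006282 (DESeq2 adjusted p = 1.5e-11, 0.00747 and 0.0414).

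ENSBTAG00000006282 stood at 0.239, 0.618 and 0.897 CPM in Co-L and at 0.0790, 0.112 and 0 CPM in Co-H, so the groups did not overlap, on 30 counts over the 6 libraries. Of the 66 identifiers at 1 CPM or more in a Co library, all 3 Co-H libraries lay above all 3 Co-L libraries for 1, against 18.5% of all such identifiers, and below them for 6, against 6.31%. Without regard to calls, 63 of the 75 (84.0%) had a log2 difference below 0 in Co-H against Co-L, against 54.9% of all genes tested. Their median was −0.76 against −0.07. When single libraries were left out, the median over the members ranged from −0.90 to −0.55, the value closest to 0 being that without Co-L 3.

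Levels over the 6 Co libraries, which the choice did not use, showed how far the identifiers moved together outside T. As Pearson's r of log2(CPM + 1), the median over the 66 pairs of the 12 identifiers with T-L 1 second was 0.48, with −0.83 to 0.97 in single pairs. Over the 21 pairs of the 7 highest in T-L 3 it was 0.61, with −0.53 to 0.95 in single pairs. Co-L 3 was the highest Co library for 5 of these 7. Over the 120 pairs of the 16 shared with T-L 3 it was 0.17, with −0.88 to 0.97 in single pairs. The median was 0.07 over all pairs of the 77 identifiers with varying Co levels. Among the 10808 identifiers with varying levels it was 0.12 over all pairs. These are descriptions over 6 libraries that differed in depth and composition, with TMM factors of 0.745 to 1.00, and low counts weaken them. The levels were not adjusted for composition or for fertility group. Of the 75 members tested, 63 had a log2 difference below 0 in Co-H against Co-L, and such a shared group difference enters r.

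The 5 identifiers most like ENSBTAG00000031160 over the 6 Co libraries were ENSBTAG00000038337 (r = 0.97), ENSBTAG00000046076 (0.96), ENSBTAG00000047986 (0.96), ENSBTAG00000005377 (0.95) and ENSBTAG00000048268 (0.92). Spearman's rho was 1.00 for ENSBTAG00000047986 and 0.94 for the other 4. All but ENSBTAG00000005377 were highest in T-H 1 and second in T-L 1, as ENSBTAG00000031160 was. ENSBTAG00000005377 was highest in T-L 1 and stood at 0.0912 CPM in T-H 1. ENSBTAG00000037693, the next by r (0.92), was also highest in T-L 1. Other identifiers with T-L 1 second were less like ENSBTAG00000031160, such as ENSBTAG00000048135 (r = 0.36) and ENSBTAG00000047156 (r = −0.73). Over all members compared, r reached down to −0.94, so the 5 are the upper end of a wide range over 6 libraries.

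ENSBTAG00000047986 kept close to ENSBTAG00000031160 in T too, at 2364 CPM in T-H 1, 595 CPM in T-L 1 and 102 to 182 CPM in the other 4. The count of ENSBTAG00000031160 was between 13.003 and 30.7 times that of ENSBTAG00000047986 over all 12 libraries. Among the 656 pairs of members with at least 20 counts each in all T and at least 3 Co libraries, the ratio of the 2 counts varied by a median of 52.6 times between libraries. For this pair it varied by 2.36 times.

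Closer still were ENSBTAG00000046161 and ENSBTAG00000047177. Their count ratio stayed between 0.785 and 1.10 over the 10 libraries with enough counts, a variation of 1.40 times and the smallest of the 656 pairs. ENSBTAG00000046161 stood at 1482 CPM in T-H 1 and 34.0 to 195 CPM in the other T libraries, and ENSBTAG00000047177 at 1836 CPM and 39.8 to 215 CPM. ENSBTAG00000001219 and ENSBTAG00000048049 had a ratio of 0.831 to 1.48 over all 12 libraries, and reached 989 and 1176 CPM in T-H 1. Whether such pairs are near-identical copies that share reads was not tested, and their single levels are uncertain for that reason.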

How the data were processed

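Gene expression was measured in 12 sheep libraries made from Trizol-extracted RNA with an Illumina TruSeq kit, per the labels. The deposited files hold raw read counts for 24616 cattle gene identifiers. The authors used Bowtie 0.12.2, and bosTau8 is named for 7 libraries, per the submitters' processing notes. For the counting tool, annotation, strand setting and filters, nothing is given in the sources used here. Reads of sheep counted on cattle genes, and reads shared by near-identical, overlapping or antisense genes, could distort single levels. A blank line in 1 file was skipped, and a first count was read from the header line of T-H 3.

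Levels are CPM of the unadjusted library total, as the rule for members states. Across all genes, edgeR 4.0.16 in R 4.3.3 was fitted to the 12 libraries with 1 mean per group, TMM scaling and edgeR's expression filter (minimum count 10). The filter kept 14839 identifiers and 75 of the 78 members. The 3 left out were ENSBTAG00000039425, ENSBTAG00000031376 and ENSBTAG00000039122. Quasi-likelihood p-values were adjusted by Benjamini-Hochberg over all genes tested and called under 0.05. The fit was tested on simulated counts. Alternatives were other thresholds and scalings, DESeq2 1.42.0, no count filter, fewer libraries, and the replicate number as a block.

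The members, sets and lists were chosen with earlier results of these data known. The rule for named genes needed symbols, and without them took at most 2 identifiers of a set, by ratio. It was applied to each set of libraries, sets of 5 or fewer were named in full, and others singled out were chosen after their values were seen. The lists of cell type markers could not be used, and no sequence is printed because none was given for these identifiers.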

Additional observations from a re-analysis of the deposited data

How the results depend on the processing

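With a ratio of 12 in place of 8 the rule found 43 identifiers, 36 of them highest in T-H 1. Leaving out single T libraries gave 25 to 82 identifiers, the 25 without T-H 1, and 60 to 71 highest in T-H 1 when another T library was left out; this last setting was added once the data had been seen. With a ratio of 6, levels of 5 or 20 CPM or TMM-adjusted totals, 58 to 110 were found and 51 to 93 were highest in T-H 1. With each of the 12 libraries left out, the edgeR calls among the members stayed at 0 for Co-H against Co-L and for T-H against T-L. For T against Co they were 43 to 50 of the 75 to 78 members tested, against 60.1% to 65.0% of all genes tested. DESeq2 called 3 in Co-H against Co-L, 3 in T-H against T-L and 38 in T against Co, over the 55 members it gave an adjusted p. Of all such genes it called 16.0%, 0.183% and 66.0%. Over all genes, calls in Co-H against Co-L were 709 with all libraries, 786 with RLE size factors, 3 without the count filter, 0 with the replicate block, 1 with Co alone, 2271 with DESeq2 and 0 to 3110 with single libraries left out. In T-H against T-L they were 0, but 1 with T alone and 27 with DESeq2. The cause was not tested.

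The replicate block in the edgeR fit gave 0, 0 and 44 calls in these 3 comparisons. The numbers are not shown to pair the libraries: deviations of same-numbered Co and T libraries from their group means correlated at 0.0934 to 0.167 in low and at −0.0839 to 0.000575 in high fertility, across 14485 identifiers. Each low fertility library correlated best with its own number, and no high fertility T library did. Depth limits the identifiers with a T median under 3 counts, whose ratios rest on few reads.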
